A study of Mus musculus with 13 samples.

Results

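The immune nuclei of the mouse kidney were taken as the nuclei that the deposited annotation placed in the cluster named immune, 386 of the 28316 nuclei in all and of the 27652 nuclei in the 13 named clusters. Single nuclei ATAC-seq (snATAC-seq), which cuts and tags DNA where chromatin is open, had been run on whole kidneys of mice at P0 (2 samples), at P21 (1 sample) and at P56 (2 samples). The P21 and P56 mice were 3 and 8 weeks old and are compared here with P0 together, as adult. The labels name no genotype, sex or treatment for these samples, and the protocol describes the youngest mice as 1 day old. The older mice were perfused with saline before the kidneys were taken, while no perfusion is described for the newborn mice, so stage and the washing out of blood cells cannot be told apart. The samples gave 99 and 57 immune nuclei at P0, 45 at P21, then 84 and 101 at P56.

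Leukocytes of a healthy kidney are mostly resident macrophages, which sit between the tubules, take up debris through scavenger, complement and Fc receptors and show peptides to T cells on MHC class II molecules. Their identity rests on PU.1, an ETS-family transcription factor encoded by Spi1, which opens enhancers of myeloid genes together with RUNX, C/EBP and IRF factors. C1qb encodes a chain of C1q, the starter molecule of the classical complement pathway, which tissue macrophages make in large amounts. Lymphocytes and neutrophils are rarer in the unperturbed organ.

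Open chromatin was read per nucleus as open or closed calls over the deposited peaks, and calls were summed over the immune nuclei of each sample. The summed immune calls ran from 130235 at P21 to 437788 in P56 sample 2. A barcode that also occurred in another library was carried by 959 nuclei, 14 of them immune. In P56 sample 2, 18.8% of the immune nuclei were tubule-marked, that is, had at least 2 open peaks in the windows of 7 tubule genes (Lrp2, Slc5a12, Slc5a2, Kap, Akr1c21, Umod and Slc12a1), against 2.38% to 4.44% in the other samples. These marked nuclei of P56 sample 2 had a median of 10769 open peaks against 2147 in its other immune nuclei. The main counts are therefore also given without the tubule-marked nuclei.

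Gene activity is the number of open calls in peaks over a gene body and 2 kb upstream, given as CPM, the usual scaling of counts to a fixed total per sum, with TMM factors. It depends on the number of peaks in the window, so levels are compared between samples and clusters and not between genes. The marker C1qb (chr4:136880129-136886187, mm10) had a gene activity of 51.7 and 55.4 CPM at P0, 35.8 at P21, then 67.4 and 41.7 at P56. All 5 samples lay far above the highest other cluster, nephron progenitors, whose mean was 1.25 CPM. A peak in the C1qb window was open in 16.8% of immune nuclei and in 0.0270% of proximal convoluted tubule (PCT) nuclei, 2 of 7412, and in 0.851% of nephron progenitor nuclei, 19 of 2232, the highest share of another cluster.

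Spi1 behaved differently. Its gene activity was 229 and 268 CPM at P0, 179 at P21, then 187 and 118 at P56, above that of each other cluster in every sample. The next cluster, the loop of Henle, reached 69.6 CPM, and the lead of immune nuclei was 1.45 on the log2 scale. The Spi1 window holds 9 peaks, at least 1 of which was open in 41.1% ± 13.2 of immune nuclei (SD, n = 5 samples) but also in 12.5% ± 4.74 (stroma 1) to 28.2% ± 13.1 (distal convoluted tubule) of the nuclei of the other clusters. In P56 sample 2 it was open in 32.1% of nephron progenitors and 30.7% of immune nuclei. C1qb thus marked the cluster with little signal elsewhere, whereas Spi1 marked it by degree. The paper lists C1qb as its marker of immune cells where it names clusters by accessibility. The lead of C1qb is therefore partly built into the name of the cluster and is no test.

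**Figure D1:**
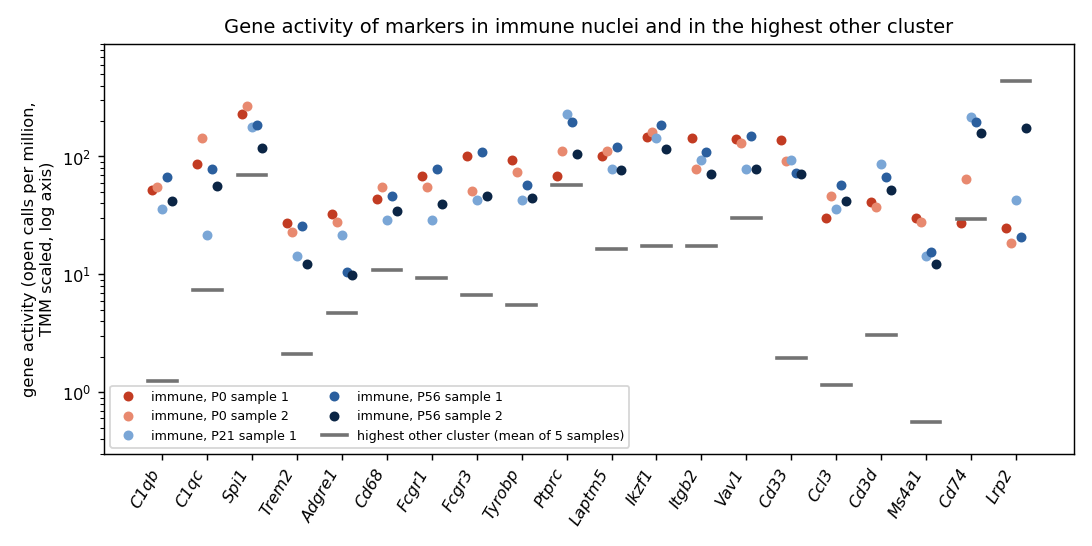
Gene activity in CPM (TMM scaled, log axis) of 20 genes in the immune nuclei of each sample (points) and in the highest other cluster (grey bars, mean of 5 samples). Points for C1qb, Ccl3 and Cd3d lie far above the bar in every sample, those for Cd74 lie near the bar in P0 sample 1 and above it in the others, and those for the tubule gene Lrp2 lie below the bar with P56 sample 2 the highest.

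To describe what else was open in these nuclei, genes were called immune-led when their log2 activity in immune nuclei was, averaged over the 5 samples, at least 4-fold above that of each other cluster, was the highest of the 13 clusters in every sample, and rested on at least 10 open calls. The clusters were made from the chromatin of the same nuclei, so the lead is a description with no test. Of 14570 genes with enough calls, 128 (0.879%) were immune-led, 132 without the tubule-marked nuclei. The largest leads belonged to Cd33, Ccl3, C1qb, Cd300lf, Ms4a6b, Clec4a2, Arhgap30, Ccl12, Slc11a1 and Sh2d1b1. Several of these encode surface receptors of myeloid cells: Cd33 is an inhibitory sialic acid receptor, Cd300lf an inhibitory receptor for lipids, and Clec4a2 an inhibitory C-type lectin. Ccl3 and Ccl12 encode chemokines that draw in monocytes and lymphocytes, and Slc11a1 the metal transporter of phagosomes.

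Cd33 (chr7:43524216-43544428) had 139 and 92.3 CPM at P0, 93.1 at P21, then 72.6 and 71.1 at P56. The next cluster, stroma 1, had 1.94 CPM, which is a log2 lead of 5.26 ± 1.29 (SD over the 5 samples). Ccl3 (chr11:83647844-83649355) had 30.0 and 46.1 CPM at P0, 35.8 at P21, then 57.0 and 41.7 at P56, against 1.16 in the next cluster. The P0 and adult samples overlapped for both genes. Arhgap30, which encodes a GTPase-activating protein of leukocytes, was even across samples, with 119.8 and 111 CPM at P0, 86.0 at P21, then 88.1 and 103 at P56, against 4.54 CPM in podocytes. The Clec4a, Ms4a, Cd300 and Ccl genes have close copies beside them, so the authors' alignment could have placed some reads at the wrong copy. Here a peak that overlaps several gene windows was counted in each.

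The gene lists were read in the same way. Of 12 genes used by leukocytes in general, 9 were immune-led, among them Ikzf1 (an Ikaros zinc finger factor of blood cells) with 151 ± 26.1 CPM (SD, n = 5 samples) against 17.5 in the next cluster, Laptm5 (a lysosomal protein of blood cells) with 97.1 ± 19.1 against 16.4, Itgb2 (the β chain of leukocyte integrins) with 99.2 ± 29.1 against 17.4, and Vav1 (an exchange factor of blood cells) with 116 ± 34.6 against 29.8. Vav1 lay just inside the 4-fold limit, with a log2 lead of 2.00. Ptprc, which encodes CD45, was higher in immune nuclei in all samples but not immune-led, with a next cluster (intercalated cells) at 57.0 CPM. Of 20 macrophage genes, 7 were immune-led: C1qb, C1qc, Adgre1 (F4/80), Cd68, Fcgr1, Tyrobp and Trem2. Another 9 of the 20 were highest in immune nuclei as a mean over samples without reaching the lead, and Csf1r, the receptor that keeps macrophages alive, was not among them, with 135 CPM in proximal straight tubule (PST) nuclei.

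Of 3 genes for the C1q chains, 2 were immune-led. C1qc had 87.1 and 143 CPM at P0, 21.5 at P21, then 77.8 and 56.4 at P56. The summed activity of the 3 genes ran from 64.5 CPM at P21 to 245 in P0 sample 2, and reached at most 8.997 CPM in another cluster, podocytes. Among 5 Fc receptor genes, which bind antibodies, 3 were immune-led (Fcgr1, Fcgr3 and Fcgr4). Fcgr3 stood at 101 and 50.8 CPM at P0, 43.0 at P21, then 109 and 46.6 at P56, against 6.71 in endothelial nuclei. Of 6 genes for the phagocyte NADPH oxidase, the enzyme of the oxidative burst, Ncf4 (123 ± 25.9 CPM against 15.4) and Rac2 (61.2 ± 24.5 against 7.35) were immune-led. Tlr7, a sensor of RNA in endosomes, was the immune-led member of 10 Toll-like receptor genes.

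No gene of the list of 16 myeloid transcription factors was immune-led, Spi1 included, although 8 of them were highest in immune nuclei. Fli1, an ETS factor of blood and vessel cells, had 192 to 349 CPM in the immune samples and 414 CPM in endothelial nuclei. Zeb2 had 145 to 212 CPM and 276 CPM in stroma 2.

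Markers of other leukocytes were sparse but not absent. Of 14 T cell genes only Cd3d, a chain of the T cell receptor complex, was immune-led, with 40.8 and 36.9 CPM at P0, 86.0 at P21, then 67.4 and 51.5 at P56, against 3.05 in endothelial nuclei. Ms4a1 (CD20) was the immune-led member of 10 B cell genes, with 30.0 and 27.7 CPM at P0 and 12.3 to 15.6 in the adult samples. Itgax (CD11c) was the immune-led member of 9 dendritic cell genes, with 4.61 to 36.3 CPM. None of 9 neutrophil, 8 natural killer cell, 6 mast cell or 6 erythroid genes was immune-led. Of the 9 neutrophil genes only 5 have a peak in their window, and S100a9 and Ly6g have none, so neutrophils had few windows in which to be seen.

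Calls in Cd3d and in macrophage genes were also counted in the same nuclei. No doublet caller was run here and a removal of doublets is not given in the sources used here, so the part of doublets in nuclei with both was not tested, nor in the tubule-marked nuclei. Cd3d was open in 69 of the 386 immune nuclei (17.9%), with 15, 8, 12, 13 and 21 nuclei in the samples in order of age. Of these, 53.6% also had a call in at least 1 of 9 immune-led genes of the macrophage, C1q and Fc receptor lists, against 59.6% of the immune nuclei without a Cd3d call. These 9 genes were picked by their lead in the same nuclei. Their share was not counted in the other clusters, so it has no background. The share of immune nuclei with such a macrophage gene open was 71.7% and 66.7% at P0, 40.0% at P21, then 53.6% and 53.5% at P56. Both P0 samples were above the 3 adult samples, as was their depth, with medians of 3677 and 3025 open peaks per immune nucleus at P0 against 2259, 2090 and 2730. Counts per nucleus rise with depth, whose part in this difference was not tested.

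Lists of genes with many peaks said little at the level of single nuclei. At least 2 pan-leukocyte genes were open in 77.7% of immune nuclei and in 5.79% to 37.7% of the nuclei of the other clusters. At least 2 of the macrophage genes were open in 64.0% of immune nuclei but in 83.1% of PST nuclei, whose sample medians of 5399 to 12173 open peaks were above the 2090 to 3677 of immune nuclei. For the T cell list the share in immune nuclei, 26.2%, was below that in all 12 other clusters. After each nucleus had been thinned to 1000 open peaks, which left 358 immune nuclei, the share for the pan-leukocyte list was 39.1% against at most 2.02% (endothelial), and that for the macrophage list 33.0% against at most 10.9% (PST). For the T cell list no other cluster was then above immune nuclei, but the loop of Henle was close, at 7.41% against 7.54%.

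The kidney marker lists were used to see what other cells the cluster might hold. None of their genes was immune-led. The summed activity of 9 proximal tubule genes in immune nuclei was 297 and 286 CPM at P0, 286 at P21, then 472 and 635 at P56, against 1386 in PCT nuclei. Lrp2 (megalin, the endocytic receptor of the proximal tubule) stood at 174 CPM in P56 sample 2 and at 18.5 to 43.0 in the other samples. The sum of 6 genes of the loop of Henle and distal nephron was likewise highest in P56 sample 2, with 314 CPM against 115 to 238. The sum of 8 endothelial genes was 463 and 485 CPM at P0 and 309 to 322 CPM in the adult samples, against 2311 in endothelial nuclei. Proximal tubule signal was thus highest in the 2 P56 samples, with the P21 sample at the level of P0, and endothelial signal was highest at P0. The stage comparisons were also run without the tubule-marked nuclei. The part of endothelial signal, or of tubule signal in the remaining nuclei, was not tested.

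**Figure D2:**
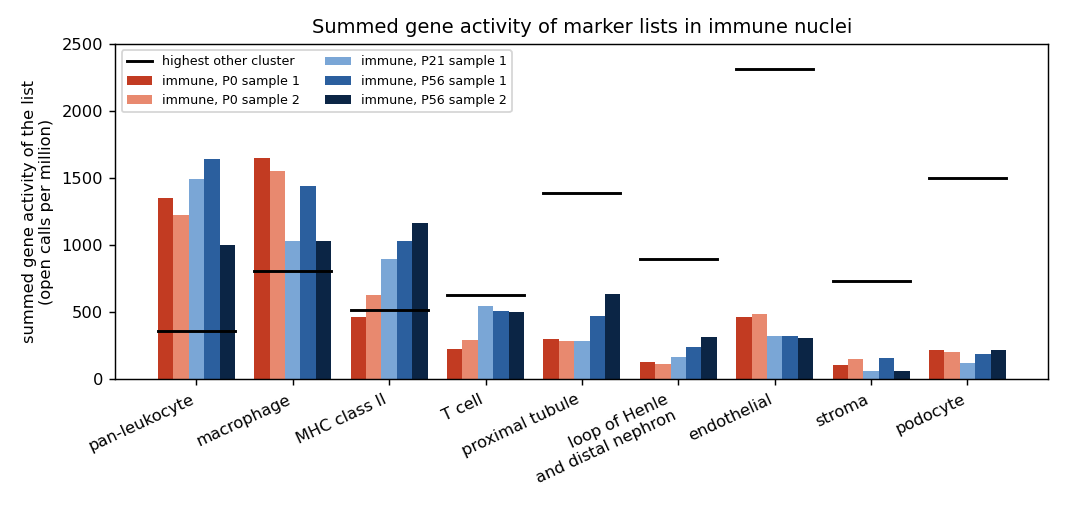
Summed gene activity (CPM) of 9 marker lists in the immune nuclei of each sample (bars) and in the highest other cluster (black lines, mean of 5 samples). Sums of the pan-leukocyte and macrophage lists exceed the line in every sample, the proximal tubule and distal lists are highest in P56 sample 2, and the endothelial list is highest in the P0 samples.

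The peaks gave a finer view. Of 29509 peaks open in at least 10 immune nuclei, 1824 (6.18%) were immune-led by the same rule, 1840 without the tubule-marked nuclei. The count was 1946 of 16935 peaks with the P0 samples alone, 1330 of 17918 with the adult samples alone and 141 of 9721 after thinning. Of the 1823 on the annotated chromosomes, 11.1% had their centre within 1 kb of the start of a protein-coding transcript, 41.4% lay in introns, 2.47% in exons and 45.0% between genes, with noncoding genes left out of the annotation. Over all peaks the promoter share was 7.41%. Over peaks led by endothelial nuclei by the same rule it was 4.16%, and over peaks open in at least 10 immune nuclei 40.5%. Immune-led peaks were thus less often promoters of protein-coding genes than the peaks open in immune nuclei at large. They were more often promoters than all peaks and than endothelial-led peaks.

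The largest lead belonged to a peak over the start of Mir142hg, the host transcript of a miRNA known for its use in blood cells, 1229 bp before the miR-142 hairpin (chr11:87755456-87755815, mm10). It was open in 20.2% and 14.04% of immune nuclei at P0, 24.4% at P21, then 8.33% and 23.8% at P56, and in at most 0.269% of the nuclei of another cluster. Its log2 lead was 4.63 ± 0.681 (SD, n = 5 samples). The mature miRNAs of this hairpin are given next from RefSeq (GRCm38.p6, plus strand of chromosome 11) with the seed, bases 2 to 8, in capitals, because the peak with the largest lead lies just before them.
miR-142a-5p: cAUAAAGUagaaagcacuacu
miR-142a-3p: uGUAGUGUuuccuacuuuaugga
The seeds of the 2 arms differ, so they form separate target families.

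The next 4 peaks by lead were the promoter of Traf3ip3 (chr1:193201310-193201933), an intergenic peak whose nearest gene is Dusp10 (chr1:183979795-183980395), a peak in an intron of Ccdc146 (chr5:21411422-21411905), and the promoter of Arhgap30 (chr1:171388900-171389347). They were open in 25.6% ± 6.55, 20.4% ± 2.71, 18.8% ± 5.23 and 22.6% ± 5.796 of immune nuclei (SD, n = 5 samples), and in at most 0.755% of the nuclei of any other cluster. The Dusp10 peak was the most even, between 16.2% and 22.6% in all samples. Neither Dusp10 nor Ccdc146 was itself a gene on the leukocyte lists.

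Near the markers, the promoter peak of C1qc (chr4:136893020-136893355) was open in 14.1% and 24.6% of immune nuclei at P0, 6.67% at P21, then 8.33% and 12.9% at P56. A peak in an intron of Spi1, 2425 bp from its start (chr2:91084432-91085199), was open in 17.2% and 36.8% of immune nuclei at P0, 8.89% at P21, then 8.33% and 9.90% at P56. At both peaks the 2 P0 samples lay above the 3 adult samples and were themselves far apart, and neither peak had enough calls to enter the stage test. No other cluster had the Spi1 intron peak open in more than 1.52% of nuclei, unlike the gene window as a whole.

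Stretches of 120 bases free of exons are shown from the mm10 genome, plus strand, for 4 of the 5 peaks with the largest lead and for the peaks of C1qb, C1qc and Spi1. The Arhgap30 peak is named only. Each stretch was placed around the PU.1 or RUNX letters nearest to the centre of the peak where the peak holds any, moved where needed to clear exons, so a match in it is partly by choice. Capitals mark the PU.1 letters searched (GAGGAAG, or CTTCCTC on the other strand).
Mir142hg start, chr11:87755614-87755733: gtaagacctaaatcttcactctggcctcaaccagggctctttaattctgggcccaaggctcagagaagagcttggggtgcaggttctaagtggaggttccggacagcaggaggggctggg
Traf3ip3 promoter, chr1:193201704-193201823: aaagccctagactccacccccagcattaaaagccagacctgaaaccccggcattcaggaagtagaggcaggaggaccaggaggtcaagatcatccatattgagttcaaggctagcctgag
Dusp10 distal, chr1:183979795-183979914: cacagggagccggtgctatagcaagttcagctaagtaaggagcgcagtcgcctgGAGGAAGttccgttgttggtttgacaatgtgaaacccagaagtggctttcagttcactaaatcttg
Ccdc146 intron, chr5:21411530-21411649: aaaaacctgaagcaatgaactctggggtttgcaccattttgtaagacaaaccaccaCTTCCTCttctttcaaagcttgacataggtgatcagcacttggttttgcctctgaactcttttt
C1qc promoter, chr4:136893066-136893185: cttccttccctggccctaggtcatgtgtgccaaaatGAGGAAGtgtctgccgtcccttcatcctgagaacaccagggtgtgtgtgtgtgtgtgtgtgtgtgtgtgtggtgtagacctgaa
Spi1 intron, chr2:91084676-91084795: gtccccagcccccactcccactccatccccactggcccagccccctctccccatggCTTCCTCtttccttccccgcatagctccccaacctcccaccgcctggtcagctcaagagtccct
C1qb promoter, chr4:136886382-136886501: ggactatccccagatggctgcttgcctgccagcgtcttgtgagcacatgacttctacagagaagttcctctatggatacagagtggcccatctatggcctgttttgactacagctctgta
The PU.1 letters occur in 4 of these 7 stretches and not in those of Mir142hg, Traf3ip3 and C1qb, although the central 300 bp of the Traf3ip3 peak and of the Arhgap30 peak hold them. In the Dusp10 peak they lie at its edge, outside the central 300 bp.

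Motif letters were then counted in the central 300 bp of every peak, on both strands. The PU.1 letters were present in 31.4% of immune-led peaks, 22.96% of endothelial-led peaks chosen by the same rule, 18.7% of peaks open in at least 10 immune nuclei and 12.6% of all 300693 peaks. The letters of another ETS motif (CAGGAAG, or CTTCCTG), read by vascular ETS factors such as ERG, showed the opposite order between the 2 cell types, with 21.4% of immune-led and 37.0% of endothelial-led peaks. RUNX letters (TGTGGTT, or AACCACA) were in 15.1% of immune-led, 5.43% of endothelial-led, 6.69% of peaks open in at least 10 immune nuclei and 6.96% of all peaks. PU.1 and RUNX letters were thus more frequent in the central 300 bp of immune-led peaks than in that of each of these sets.

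IRF letters (GAAANNGAA, or TTCNNTTTC) were in 12.7% of immune-led, 12.97% of endothelial-led and 10.1% of all peaks, and AP-1 letters (TGANTCA) in 11.8%, 12.2% and 10.5%. C/EBP letters (TTGCGCA, or TGCGCAA) were rare, in 0.713%, 0.439% and 0.533%, and were more frequent, at 1.51%, in peaks open in at least 10 immune nuclei. HNF4 letters (AAAGTCC, or GGACTTT), a motif of tubule cells, were in 4.11% of immune-led and 5.24% of all peaks. Away from promoters the PU.1 letters were in 31.7% of 1620 immune-led peaks and 12.5% of all such peaks, and RUNX letters in 15.6% and 7.202%. The median GC content of the central windows was 47.3% for immune-led, 48.3% for endothelial-led, 46.7% for all peaks and 54.0% for peaks open in at least 10 immune nuclei. In whole peaks the PU.1 letters no longer separated immune-led (35.4%) from endothelial-led peaks (36.6%) or from peaks open in at least 10 immune nuclei (37.6%), both of which were wider, with medians of 559 and 790.0 bp against 344 bp.

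**Figure D3:**
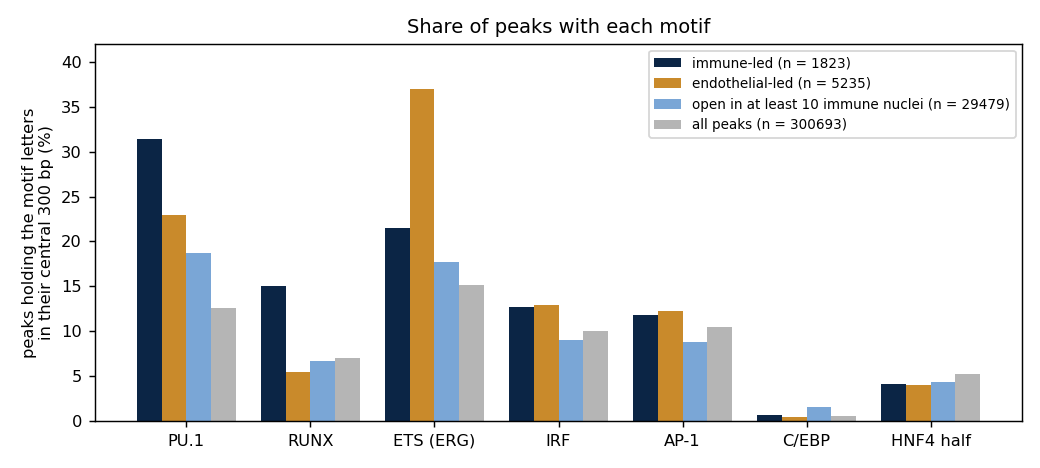
Share (%) of peaks whose central 300 bp hold the letters of each of 7 motifs, for immune-led peaks, endothelial-led peaks, peaks open in at least 10 immune nuclei and all peaks. PU.1 and RUNX bars are tallest for immune-led peaks, and the ETS bar is tallest for endothelial-led peaks.

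Stage was not part of the rule that chose the nuclei, although the authors corrected for differences between samples before clustering. The share of immune nuclei among those of the named clusters was 1.67% and 1.06% at P0, 1.38% at P21, then 1.21% and 1.63% at P56. The 2 stages overlapped, with 1.37% ± 0.431 (SD, n = 2) at P0 and 1.41% ± 0.210 (n = 3) in adult (exact permutation test, two-sided, p = 1.0). The median number of open peaks per immune nucleus was 3351 ± 461 at P0 and 2360 ± 332 in adult, without overlap (exact permutation test, two-sided, p = 0.2, the smallest that 2 samples against 3 can give). The mean per nucleus did overlap, with 3853 and 3854 at P0 and 2894, 2375 and 4335 in adult, P56 sample 2 being the highest (difference 652, exact permutation test, two-sided, p = 0.6).

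In dissociated cells read by scRNA-seq, with 1 library per stage and therefore no test, the named leukocytes were macrophages and neutrophils. Macrophages made up 4.17% of 25138 cells at P0 (exact binomial 95% interval 3.93% to 4.43%) and 1.04% of 18498 adult cells (0.902% to 1.20%). Neutrophils made up 2.32% (2.14% to 2.51%) and 0.227% (0.164% to 0.307%). There were 1.80 macrophages per neutrophil at P0 and 4.60 in adult. None of the 16 deposited cluster names is a T or B cell. The intervals cover counting error only, and the shares of cells and of nuclei have different denominators and preparations.

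Within immune nuclei few genes passed a test of stage. edgeR's quasi-likelihood test over 8480 genes called 3 (0.0354%) at a Benjamini-Hochberg adjusted p under 0.05, 1 higher in adult (0.0118%) and 2 lower (0.0236%), with 883 at an unadjusted p under 0.05, while DESeq2 called 0. Cd74, the invariant chain that guides MHC class II molecules to the peptide-loading compartment, had 27.2 and 64.6 CPM at P0, 215 at P21, then 197 and 159 at P56. All adult samples were above both P0 samples, and the log2 difference (adult minus P0) was 2.11 ± 0.335 (SE, adjusted p = 0.0368). Plod1, a lysyl hydroxylase of collagen, had 117 and 129 CPM at P0 and 28.7, 36.3 and 29.4 CPM in adult. It fell by 1.98 ± 0.302 on the log2 scale (adjusted p = 0.0368). Adam3, known from sperm, fell by 3.91 ± 0.618 (adjusted p = 0.0368), from 79.0 and 96.9 CPM to 14.3, 0 and 4.91.

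The number of genes called depended on single samples. It was 0 when P0 sample 1, P0 sample 2, the P21 sample or P56 sample 1 was left out and 34 without P56 sample 2, and 245 (174 higher in adult and 71 lower) when genes with few calls were kept. The count was 23 without the tubule-marked nuclei, which include Cd74, Plod1 and Adam3. C1qb (adjusted p = 0.923) and Spi1 (adjusted p = 0.337) did not pass: 0 of 10 macrophage genes, 0 of 2 C1q genes, 0 of 4 Fc receptor genes and 0 of 14 myeloid transcription factor genes were called. Their median log2 differences (adult minus P0) were -0.47, -0.60, -0.39 and -0.22, beside 0.01 over all genes tested.

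Among peaks, 9 of 6033 (0.149%) were called, 6 higher in adult (0.0995%) and 3 lower (0.0497%), with 538 at an unadjusted p under 0.05, while DESeq2 called 0. The count was 240 without P56 sample 1, of which 66 were higher in adult and 174 lower, the opposite balance. It was 0 without the P21 sample or P56 sample 2, 1 without P0 sample 1, 4 without P0 sample 2 and 6 without the tubule-marked nuclei. The strongest was a peak at the Cd74 promoter (chr18:60803504-60804064), open in 3 and 4 immune nuclei at P0, 10 at P21, then 16 and 32 at P56. Its log2 difference was 2.62 ± 0.447 (adjusted p = 0.000552). None of the 9 peaks was immune-led. Others higher in adult included the promoter of Wasf2 (chr4:133130011-133131058, log2 1.44 ± 0.309, adjusted p = 0.0223), an exon of Lars2 (chr9:123461623-123462314, 2.22 ± 0.435, adjusted p = 0.00631) and a peak over an annotated rRNA gene (chr17:39847439-39848921, 0.99 ± 0.217, adjusted p = 0.0419). Reads from rRNA genes match many copies, so the last value is uncertain. The largest fall was in an intron of Camkk1 (chr11:73024527-73025102, -2.09 ± 0.454, adjusted p = 0.0223), open in 33 and 11 nuclei at P0 against 1, 7 and 5.

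To ask whether the stage difference of immune nuclei was their own, the adult minus P0 difference in immune nuclei was compared with the mean difference of the 12 other clusters, as an interaction term in edgeR's quasi-likelihood fit of the 65 sums with sample as a block. The 65 sums come from only 5 samples. Most are sums of other clusters, so the spread behind these p-values is not that of immune nuclei alone. The term passed for 270 of 8480 genes (3.18%), 207 higher in immune nuclei (2.44%) and 63 lower (0.743%). Without the tubule-marked nuclei it passed for 174 higher and 94 lower, and 185 of the 270 genes passed in both. Without P0 sample 1 the count was 16, against 113 without P0 sample 2 and 140 without P56 sample 2. Leaving out a P0 sample leaves 1 at P0, which is then assumed to vary like the adult samples. The same 10 genes passed in all 5 fits that left out a sample, among them Lef1, Runx3 and Plod1. Against endothelial nuclei alone the term passed for 79 genes, 46 of them among the 270. That fit holds only the immune and endothelial sums, so a gene that does not pass it is not shown to lack a difference. For 28 genes with no call in some cluster and stage, C1qb and Cd3d among them, no difference could be estimated.

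Of 7 MHC class II genes tested, 6 passed this test (Cd74, H2-Ab1, H2-Aa, H2-Eb1, H2-DMb2 and Ciita), all higher in immune nuclei and all also without the tubule-marked nuclei. When 1 sample was left out in turn, 0 of the 6 passed in all 5 fits and 3 passed in at least 4, and H2-Aa passed in 1. H2-Ab1, the β chain of I-A, had 13.6 and 55.4 CPM at P0, 86.0 at P21, then 109 and 167 at P56. Every adult sample was above both P0 samples, while the mean of the other clusters went from 39.5 to 31.4 CPM, and the interaction was 2.65 ± 0.419 (SE, log2, adjusted p = 4.27e-05). H2-Aa, its α chain partner, had 8.17 and 13.8 CPM at P0 and 28.7, 72.6 and 61.3 in adult (interaction 2.37 ± 0.613, adjusted p = 0.0175). H2-Eb1, the β chain of I-E, had 35.4 and 46.1 CPM at P0 and 64.5, 88.1 and 120.2 in adult (1.76 ± 0.352, adjusted p = 0.00143).

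The list's members did not move alike. For Cd74 the other clusters stayed at 16.7 and 17.9 CPM and the interaction was 2.24 ± 0.466 (adjusted p = 0.00219). For H2-DMb2, a chain of the peptide exchanger, immune nuclei hardly differed (68.1 and 64.6 CPM at P0, 64.5, 88.1 and 63.8 in adult), and the interaction of 2.29 ± 0.432 (adjusted p = 0.00063) came with a drop of the other clusters from 18.0 to 4.63 CPM. Ciita, the master regulator of the class II genes, had 32.7 and 69.2 CPM at P0 and 35.8, 77.8 and 113 in adult (1.55 ± 0.374, adjusted p = 0.00972).

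Endothelial nuclei, which carry class II molecules in the kidney too, were also used as the only comparison. Of the 6 members, 0 passed against endothelial nuclei alone. There the difference was 0.13 for Cd74 (adjusted p = 0.965), 1.37 for H2-Ab1 (adjusted p = 0.192), 1.75 for H2-Aa (adjusted p = 0.369), 0.48 for H2-Eb1 (adjusted p = 0.615), -0.0536 for Ciita (adjusted p = 0.968) and -0.0645 for H2-DMb2 (adjusted p = 0.975), all log2 values from the same edgeR fit. Endothelial Cd74 stood at 7.52 and 15.1 CPM at P0, 15.3 at P21 and 15.1 in P56 sample 1, but at 95.1 in P56 sample 2. A like step was seen for endothelial H2-Aa, with 36.0 CPM in P56 sample 2 and 3.83 to 13.4 in the others. Endothelial Ciita instead was higher in all 3 adult samples, with 42.4 and 50.8 CPM at P0 and 86.2, 90.7 and 102 in adult. In the plain stage test within immune nuclei, 1 of the 7 class II genes tested passed, Cd74. A stage difference particular to immune nuclei thus passed, for these 6 members, against the mean of the other clusters and not against endothelial nuclei.

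**Figure D4:**
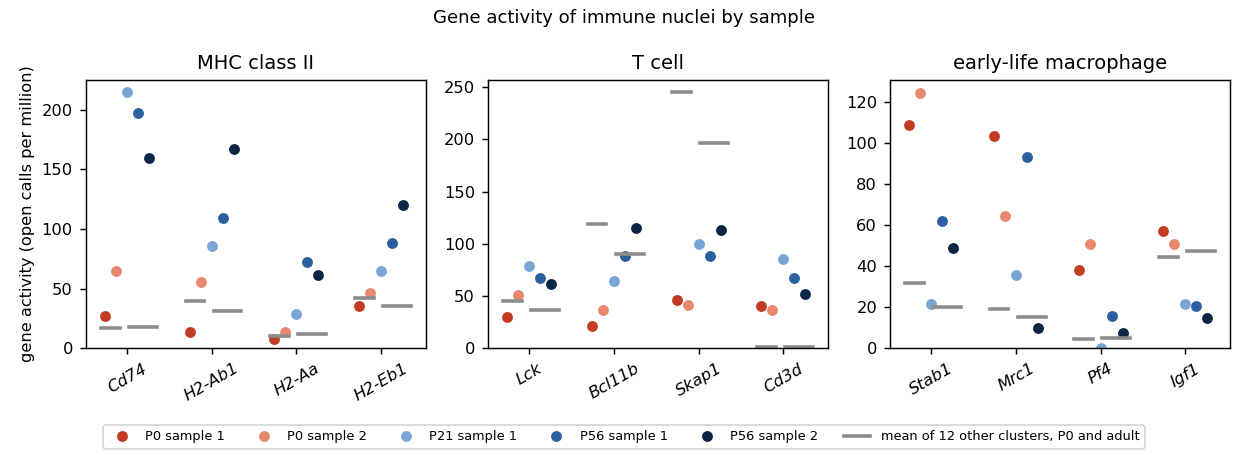
Gene activity (CPM) of 4 MHC class II, 4 T cell and 4 early-life macrophage genes in the immune nuclei of each sample (points), with the mean of the 12 other clusters at P0 and in adult (grey lines). Points of all 3 adult samples lie above both P0 points for Cd74, H2-Ab1, Lck and Skap1, and below them for Stab1, Pf4 and Igf1.

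Of 6 T cell genes tested, Cd3d had no estimate of the interaction. Of the other 5, 4 were higher in immune nuclei by the interaction, among them Bcl11b, Skap1 and Lck, and all 4 also without the tubule-marked nuclei. When 1 sample was left out in turn, 0 of the 4 passed in all 5 fits and 2 passed in at least 4. Lck, the kinase that starts T cell receptor signalling, had 30.0 and 50.8 CPM at P0, 78.8 at P21, then 67.4 and 61.3 at P56. The 3 adult samples were above both P0 samples, and the interaction was 1.38 ± 0.3685 (adjusted p = 0.0219). Skap1, an adaptor of T cell adhesion, had 46.3 and 41.5 CPM at P0 and 100.3, 88.1 and 113 in adult (1.73 ± 0.317, adjusted p = 0.000461). Bcl11b, the factor that fixes T cell fate, had 21.8 and 36.9 CPM at P0 and 64.5, 88.1 and 115 in adult (2.52 ± 0.465, adjusted p = 0.00051). Bcl11b and Skap1 also passed against endothelial nuclei alone (adjusted p = 0.00952 and 0.0308), and Lck did not (adjusted p = 0.589).

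Bcl11b, Skap1 and Lck did not pass the plain stage test within immune nuclei, where the adjusted p was 0.16 for Bcl11b, 0.17 for Skap1 and 0.482 for Lck. Neither did Cd3d, the immune-led T cell gene (adjusted p = 0.563), whose interaction could not be estimated. Bcl11b and Skap1 are not T cell markers by window here, since the other clusters averaged 90.6 to 119 CPM and 197 to 245 CPM, more than immune nuclei. Nor is Lck, which was higher in endothelial than in immune nuclei in every sample, at 102 to 177 CPM. Lef1, a factor of T cells and of developing epithelium that was on no list, had 30.0 and 27.7 CPM at P0, 129 at P21, then 67.4 and 66.2 at P56, while the other clusters went from 72.8 to 29.2 (2.94 ± 0.453, adjusted p = 2.68e-05). In bulk sums such as these, more T cells among the immune nuclei and more open T cell genes per nucleus cannot be told apart.

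Of 10 pan-leukocyte genes tested, 6 were higher in immune nuclei by the interaction (Ptprc, Laptm5, Ikzf1, Lcp2, Dock2 and Coro1a), and 1 of them, Dock2, also against endothelial nuclei alone. In that smaller fit the log2 difference was 2.44 for Ptprc, 2.28 for Laptm5 and 1.69 for Dock2. It was 1.37 for Ikzf1, 1.22 for Lcp2 and 0.80 for Coro1a. When 1 sample was left out in turn, 0 of the 6 passed in all 5 fits and 2 passed in at least 4, and Coro1a passed in 1. Ptprc had 68.1 and 111 CPM at P0, 229 at P21, then 197 and 105 at P56, so P56 sample 2 overlapped P0, and its interaction was 1.70 ± 0.324 (adjusted p = 0.000718). For the other 5 the immune level differed by -0.24 to 0.23 between the stages (log2, adult minus P0). Laptm5 had 101 and 111 CPM at P0 and 78.8, 119 and 76.1 in adult while the other clusters dropped from 11.5 to 2.79 CPM (1.96 ± 0.376, adjusted p = 0.000727), and Ikzf1 showed the same with 17.3 and 6.65 CPM in the other clusters (1.64 ± 0.378, adjusted p = 0.00672). These interactions rest on a leukocyte gene activity of the other clusters that was higher at P0 than in adult, whose source was not tested.

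Among all 207 genes the immune level was higher in adult for 175 and the mean of the other clusters was lower in adult for 167. For 114 the immune change was larger than the fall in the others, a count that can take in genes whose other clusters did not fall. Selplg, which encodes the selectin ligand PSGL-1, had 27.2 and 23.1 CPM at P0 and 64.5, 31.1 and 51.5 in adult (3.68 ± 0.545, adjusted p = 1.38e-05). Of the myeloid transcription factors Runx3 (1.99 ± 0.285, adjusted p = 9.26e-06) and Runx1 (0.85 ± 0.172, adjusted p = 0.00152) passed, Runx1 with 280 and 212 CPM at P0, 365 at P21, then 337 and 267 at P56. Flt3, the growth factor receptor of dendritic cell precursors, and Cxcr4, the receptor for CXCL12, were the members of their lists past the test (2.02 ± 0.424, adjusted p = 0.0023, and 1.20 ± 0.306, adjusted p = 0.0154). Against endothelial nuclei alone Runx1 passed (adjusted p = 0.0129), and Runx3 (0.11), Selplg (0.174), Flt3 (0.0963) and Cxcr4 (0.293) did not.

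P56 sample 2, the sample with most tubule-marked nuclei, had the highest immune level of H2-Ab1, H2-Eb1, Ciita, Bcl11b and Skap1, all of which passed without those nuclei, and of 4 genes on no list. Ptprg had 314 CPM there against 18.5 to 98.5 in the other immune samples, Pawr 149.6 against 13.6 to 51.8, Trabd2b 221 against 19.1 to 100.3 and Zfp385b 83.4 against 13.6 to 57.3. For Ptprg the mean of the other clusters was higher, at 446 and 443 CPM at P0 and in adult. In P56 sample 2 endothelial nuclei were above immune nuclei for Ptprg, with 1055 CPM. They were below immune nuclei for Pawr (81.1 CPM), Trabd2b (109 CPM) and Zfp385b (69.05 CPM). Without the tubule-marked nuclei Ptprg still passed (adjusted p = 0.00843), Trabd2b did not (adjusted p = 0.0835), and the other 2 had too few calls to be tested.

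The 63 genes that were lower in immune nuclei all had a lower immune level in adult than at P0, and no member of any list was among them. Plod1 was one of them (-1.74 ± 0.318, adjusted p = 0.000461), with 39.3 and 39.1 CPM in the other clusters at the 2 stages. Abca1, the cholesterol exporter that macrophages use to shed lipid, had 223 and 323 CPM at P0 and 93.1, 124 and 115 in adult, a clear separation (-1.28 ± 0.263, adjusted p = 0.0019). Acp2, a lysosomal acid phosphatase, had 76.2 and 83.1 CPM at P0 and 21.5, 46.7 and 27.0 in adult (-1.59 ± 0.338, adjusted p = 0.00273). Against endothelial nuclei alone Plod1 passed (log2 -1.50, adjusted p = 0.0433), and Abca1 (-1.12, 0.107) and Acp2 (-1.17, 0.23) did not. Endothelial nuclei had 209 CPM of Abca1, above the immune mean of 176, and 52.0 to 91.4 CPM of Plod1. The endothelial list was higher in the immune nuclei at P0, and its part in these values was not tested. Crispld2, Tmprss4, Dhx32, Csnk1e, Hpn, Tmem140 and Sbf2 completed the 10 with the most negative interaction, with interactions of -1.26 to -1.88.

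**Figure D5:**
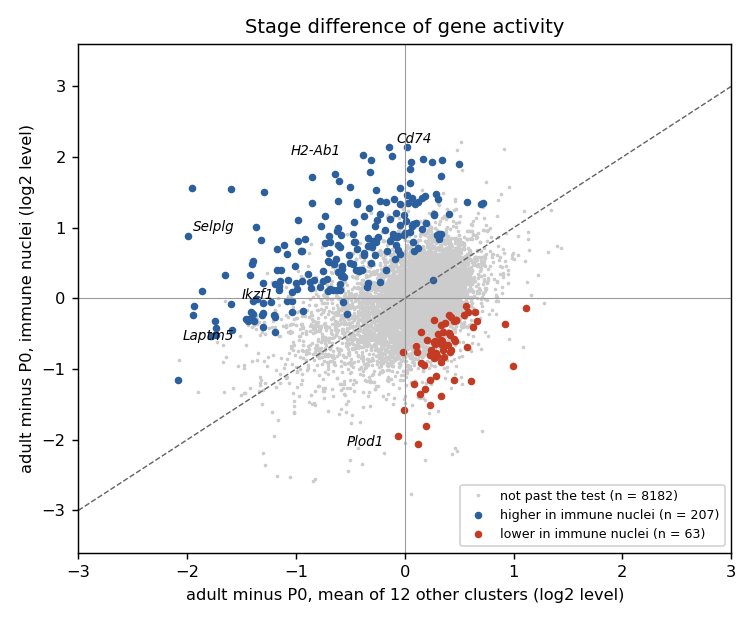
Adult minus P0 difference of log2 gene activity in immune nuclei (y axis) against the mean of the 12 other clusters (x axis), per gene, with the 28 genes without an estimate left out. Genes past the interaction test lie above the dashed line of equal change (207, blue) or below it (63, red), and Laptm5 and Ikzf1 lie near 0 on the y axis and below -1 on the x axis.

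No gene of the list of perivascular and early-life macrophages passed a stage test, and for Mrc1 the P0 and adult samples overlapped. Stab1, a scavenger receptor, had 109 and 125 CPM at P0 and 21.5, 62.2 and 49.1 in adult (log2 -1.31, adjusted p = 0.160), Mrc1, the mannose receptor, 103 and 64.6 CPM at P0 and 35.8, 93.3 and 9.81 in adult, and Igf1 57.2 and 50.8 CPM at P0 and 21.5, 20.7 and 14.7 in adult. The median log2 difference of the 3 members tested was -1.31, beside 0.01 over all genes, and 0 of 3 passed either test. Pf4, with 38.1 and 50.8 CPM at P0 and 0 to 15.6 in adult, had too few calls to be tested. Stab1, Igf1 and Pf4 were also open in endothelial nuclei, at 58.6, 92.1 and 32.5 CPM, and the endothelial list was higher in the immune nuclei at P0, whose part in these values was not tested.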

How the data were processed

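The 5 snATAC-seq samples of whole mouse kidney and the cluster names of 2 scRNA-seq libraries were used. Per the methods and the submitters' processing notes, the authors aligned reads to mm10 with Cell Ranger ATAC 1.1.0, clustered nuclei with SnapATAC and Harmony, called peaks with MACS2 per cell type and merged them. The authors deposited these as a binary count matrix, 1 where a nucleus has a fragment in a peak, with no depth scaling. Open calls were added up by cluster within each sample for all fits. The scRNA-seq names were made with Cell Ranger 3.1.0 and Seurat 3.0.

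Nuclei were mapped to samples through the metadata, in matrix order; 0 columns of other samples were left out. Sums for 13 clusters in 5 samples were fitted in R 4.3.3 with edgeR 4.0.16 (filterByExpr with a minimum count of 10, TMM, quasi-likelihood test, Benjamini-Hochberg at 0.05); DESeq2 1.42.0 was an alternative. Gene windows and locations came from GENCODE M21 on GRCm38, and log2 levels used a prior count of 2. Tests were tried on simulated data. The samples of a stage are not stated to come from separate mice, so p-values measure the spread between these samples, which may be technical. In the interaction fit this spread is estimated over the 65 sums of all 13 clusters, not from the immune sums alone. Genes named are C1qb and Spi1, up to 4 per list, and the 10 genes and 5 peaks with the largest lead. Per stage test they are also the 10 genes with the largest change in each direction. Not all of the 9 peaks past the stage test are named, and the rRNA gene peak had the smallest rise among them. The C1qc and Spi1 peaks, and Adgre1, Cd68, Trem2, Csf1r, S100a9 and Ly6g, were added after their values were seen. The count of nuclei with calls in Cd3d and in immune-led macrophage genes was also chosen after values were seen. The nuclei, lists and rules were chosen with earlier results of these data known. Values of some genes past these rules are not reported here.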

Additional observations from a re-analysis of the deposited data

Results flagged for a closer look

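The adult minus P0 difference of immune nuclei differed from that of the 12 other clusters, by the interaction term of the edgeR fit over 5 samples, for 207 genes in the upward and 63 in the downward direction. The named members among them, with the log2 difference (immune minus other clusters), were as follows. Upward, the values were 2.24 for Cd74, 2.65 for H2-Ab1, 2.37 for H2-Aa, 1.76 for H2-Eb1, 2.29 for H2-DMb2 and 1.55 for Ciita in MHC class II. They were 2.52 for Bcl11b, 1.73 for Skap1 and 1.38 for Lck in the T cell list, and 1.70 for Ptprc, 1.96 for Laptm5, 1.64 for Ikzf1, 1.53 for Lcp2, 1.20 for Dock2 and 0.95 for Coro1a among pan-leukocyte genes. Runx1 (0.85), Runx3 (1.99), Flt3 (2.02), Cxcr4 (1.20), Selplg (3.68), Lef1 (2.94), Arhgap30 (1.96), Ptprg (2.72), Trabd2b (2.68), Pawr (2.67) and Zfp385b (2.57) were also upward. An upward value need not be a rise in immune nuclei. For Arhgap30 the immune level was lower in adult (log2 -0.32), while the mean of the other clusters fell from 6.87 to 1.55 CPM. Downward, the values were -1.28 for Abca1, -1.59 for Acp2, -1.88 for Crispld2, -1.54 for Csnk1e, -1.67 for Dhx32, -1.38 for Hpn, -1.74 for Plod1, -1.26 for Sbf2, -1.30 for Tmem140 and -1.76 for Tmprss4. For Cd74, 95.1 CPM in the endothelial nuclei of P56 sample 2 stood against 7.52 to 15.3 CPM in those of the other 4 samples.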

How the results depend on the processing

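The immune-led sets depended on the size of the lead and on depth: 415 peaks had a lead of 8-fold and 251 genes a lead of 2-fold, and thinning each nucleus to 1000 open peaks left 141 peaks and 51 genes. Leaving out 1 sample gave 1574 to 2270 peaks and 124 to 139 genes. The number of genes past the stage test was 0 with DESeq2, with the P56 samples alone as adult and with nuclei of at least 1000 open peaks, 23 without the tubule-marked nuclei (a setting added after seeing the data), 245 with no filter on low counts, and 0 to 34 with 1 sample left out. For peaks it was 0 with DESeq2 and with P56 alone, 2 with no filter, and 0 to 240 with 1 sample left out. The interaction passed for 79 genes against endothelial nuclei alone and for 16 to 374 with 1 sample left out (16 without P0 sample 1, 113 without P0 sample 2, 140 without P56 sample 2). Against endothelial nuclei alone the difference turned to -0.0536 for Ciita and -0.0645 for H2-DMb2. The causes were not tested.

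With the replicate number as a block, 7 genes and 4 peaks passed the stage test. The interaction has each sample as its block, and without this block 160 genes passed. The replicate numbers give no sign of pairing, since deviations of same-numbered P0 and P56 samples had a correlation of 0.0332 over 8480 genes.

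The difference in immune share (P0 minus adult, percentage points) of -0.0394 turned to 0.0478 without the tubule-marked nuclei (exact permutation p = 0.8), to 0.266 without P0 sample 2 and to 0.0714 without P56 sample 2, over a range of -0.344 to 0.266. The difference in median open peaks was 665 to 1317 with 1 sample left out, and that in mean open peaks was 652. In whole peaks the letters were in 35.4% (PU.1), 24.8% (ETS), 14.5% (AP-1), 16.2% (IRF), 17.9% (RUNX) and 5.38% (HNF4) of immune-led peaks. With at least 1 gene, at least 3 genes and thinned nuclei, the share of immune nuclei was 92.0%, 61.7% and 39.1% for pan-leukocyte genes, 45.1%, 5.44% and 2.51% for Fc receptors, and 54.9%, 15.5% and 7.54% for T cell genes, and with at least 1 gene 22.5% for neutrophil genes. With at least 1 gene another cluster reached 76.8% (PST), 41.3% (PCT) and 28.2% (PST) for pan-leukocyte, Fc receptor and neutrophil genes. For T cell genes all 12 other clusters were above immune nuclei, at 65.5% to 87.9%. With at least 3 Fc receptor genes no other cluster exceeded 0.455%, and in thinned nuclei none exceeded 0.117%. Without proliferating, unnamed and stroma cells, macrophages were 5.69% and neutrophils 3.16% of P0 scRNA-seq cells. With 45 to 101 immune nuclei a sample, the count filter left peaks open in few nuclei out of the main stage test. That test therefore does not speak to differences in them.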
